A study of Mus musculus with 2 samples.

Results

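The genes described here are 9 genes grouped as readouts of canonical WNT signalling in the mouse: Lef1, Tcf7, Sp5, Sp8, Axin2, Nkd1, Nkd2, Apcdd1 and Kremen1. They are not all equally established as readouts. The 9 genes were found on the arrays through the RefSeq accession of each probe, which gave 16 probes. All 16 probes passed the filter on dim probes, so 9 of 9 genes were measured among 21337 genes in all.

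In canonical WNT signalling a secreted WNT ligand binds a Frizzled receptor and an LRP co-receptor, the complex that destroys β-catenin is held back, and β-catenin enters the nucleus to work with DNA-binding factors of the TCF/LEF family. Many genes switched on in this way encode brakes on the same pathway, and their transcripts are therefore widely used to read its activity. In the ureter, WNT ligands from the epithelium signal to the surrounding mesenchyme, and BMP4 made by that mesenchyme acts on both layers.

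Ureters were taken from wildtype NMRI mouse embryos of mixed sex at E12.5 and kept as explants on transwell membranes for 18 h. The medium held 10 µg/ml NOGGIN, a secreted protein that binds BMPs and keeps them from their receptors, or no NOGGIN. RNA was measured on 2 Agilent 2-colour microarrays, called replicates 1 and 2, each hybridised with a NOGGIN sample and a control sample. The dyes were exchanged from the first array to the second. Whether the replicates came from separate cultures is not given in the labels, and how many ureters were pooled is not given either. The p-values therefore measure the spread between these samples, which may be technical. Array and dye orientation changed together and the fit had no dye term. Differences between the arrays therefore cannot be told apart from dye effects. Explants hold epithelium and mesenchyme together, and fewer cells of a type cannot be told apart from less RNA per cell.

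The direction of the ratios is not settled. With the dyes as the labels give them, the BMP target genes Id1, Id2 and Smad6, which BMP signalling activates, were higher in the NOGGIN-labelled channel by log2 ratios of 1.98 ± 0.62, 2.73 ± 0.87 and 1.01 ± 0.17 (SD, n = 2). In the whole list of BMP target genes, 8 of 8 were higher at an adjusted p under 0.05 in limma's test, against 3.95% of all genes. The median log2 ratio of that list was 1.70. The authors' deposited table gives Id1, Id2 and Smad6 the opposite sign. Over 19704 bright probes its log2 values correlated with the label-oriented ratios of the same array at r = -0.985 on replicate 1 and r = -0.988 on replicate 2. It lists Id2 at signed fold changes of -4.19 and -10.5. All values here are therefore given for the NOGGIN-labelled and the control-labelled channel, as log2 of NOGGIN-labelled over control-labelled. Turning the sign exchanges higher and lower throughout and leaves sizes and p-values as they are.

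In the 4 channels, 67.3% to 74.3% of spots for genes stood well above background, with 0 spots saturated. The log2 ratios of the 2 arrays, compared over genes, which do not count as independent replicates, had a Pearson correlation of 0.702 and a Spearman correlation of 0.530. Markers of the labelled tissue were measured in full, 8 of 8 for ureteric mesenchyme and 9 of 9 for ureteric epithelium. Precision is limited by there being only 2 arrays.

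Of the 9 readout genes, 2 passed the threshold of an adjusted p under 0.05 in limma's moderated test, or 22.2%, against 7.97% of all genes tested. Sp5 was higher in the NOGGIN-labelled channel, 1 of 9 against 3.95% of all genes. Nkd2 was lower, 1 of 9 against 4.03% of all genes. The other 7 were not past the threshold. With 1 gene in each direction, nothing is read from these counts about the set as a whole. The median log2 ratio of the 9 genes was -0.037, and that of all genes was 0.00083. At an unadjusted p under 0.05 the count was 4 of 9, with Apcdd1 and Kremen1 added, both lower, against 23.2% of all genes.

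The arrays, which also differ in dye orientation, differed in how the 9 genes lay around 0. On replicate 1 the ratio was positive for 5 of the 9 genes and their median was 0.056, while on replicate 2 it was positive for 1 gene, Sp5, and the median was -0.22. Sp5, Axin2, Nkd2, Apcdd1 and Kremen1 had the same sign on both arrays, 5 of 9 against 66.7% of all genes. Differences that reached 1.5-fold on each array with matching sign were found for 0 of the 9 genes, against 2.9% of all genes. Replicate 2 taken alone had 3 of the 9 genes at 1.5-fold or more, Sp5, Axin2 and Nkd2, against 5.09% of all genes. Replicate 1 alone had 0 of the 9, against 4.44% of all genes.

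**Figure D1:**
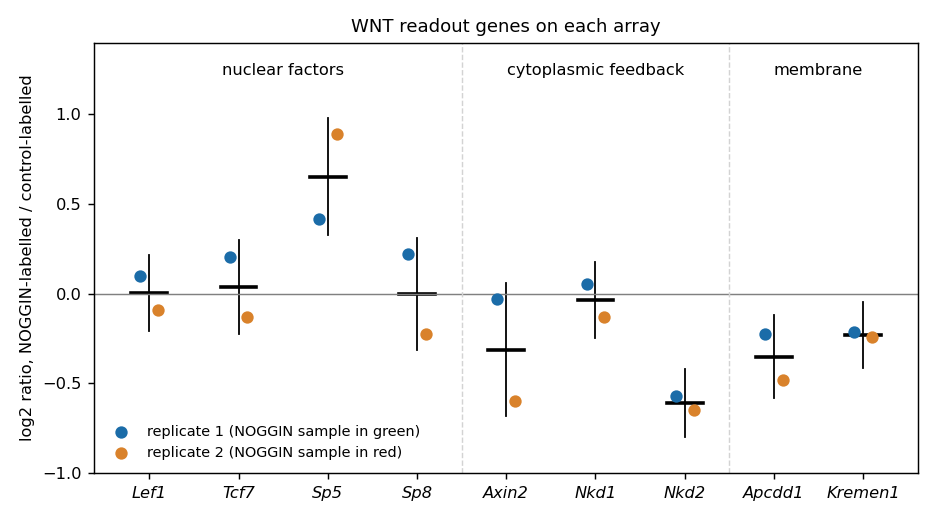
Log2 ratio of NOGGIN-labelled over control-labelled signal (vertical axis) of the 9 WNT readout genes (horizontal axis, by role). Circles are the arrays, horizontal bars the mean of both and vertical lines the 95% interval of the moderated fit. Sp5, at 0.41 and 0.89, lies above 0 on both arrays, Nkd2, at -0.57 and -0.65, lies below 0 on both, and Lef1, Tcf7, Sp8 and Nkd1 have a circle on each side of 0.

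The nuclear members are transcription factors. Lef1 and Tcf7 encode HMG-box proteins of the TCF/LEF family, which bring β-catenin to DNA and are themselves WNT targets in many tissues. Lef1 had normalised log2 signals of 11.28 and 11.24 in the NOGGIN-labelled channel of replicates 1 and 2, against 11.18 and 11.33 in the control-labelled channel. The channels overlapped, and the ratio was positive on replicate 1 and negative on replicate 2. Overlap here and below compares signals across both arrays, whereas the test uses the ratio within each array. Signals were not normalised between the arrays, so overlap also depends on how bright each array was. The mean log2 ratio of Lef1 was 0.0051 ± 0.13 (SD, n = 2; 95% interval -0.21 to 0.22; adjusted p = 0.983). A second Lef1 probe gave -0.048, also with signs that differed between the arrays.

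Tcf7 had log2 signals of 11.88 and 11.59 in the NOGGIN-labelled channel and 11.67 and 11.72 in the control-labelled channel. Here too the channels overlapped and the sign differed between the arrays. The mean log2 ratio was 0.036 ± 0.24 (SD, n = 2; 95% interval -0.23 to 0.30; adjusted p = 0.884), and the second probe gave -0.069. Changes of Lef1 or Tcf7 inside these intervals were not detectable with 2 arrays. The related factors Tcf7l1 and Tcf7l2 averaged -0.093 ± 0.061 (adjusted p = 0.531) and 0.23 ± 0.087 (adjusted p = 0.158). The 2 further Tcf7l2 probes gave -0.19 and -0.028, on the other side of 0.

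Sp5 encodes a zinc finger protein of the SP family and is a direct target of β-catenin and TCF/LEF factors. Its signals were 9.28 and 9.40 in the NOGGIN-labelled channel, against 8.86 and 8.51 in the control-labelled channel. The channels did not overlap, and the ratio was higher on both arrays, with the larger value on replicate 2. The mean log2 ratio was 0.65 ± 0.34 (SD, n = 2), a 1.57-fold difference, with a 95% interval of 0.33 to 0.98 and an adjusted p of 0.0467. Only a single probe measured Sp5. The authors' deposited table lists it at -1.42 and -2.11, with the opposite sign. The call was lost with the separate-channel model (adjusted p = 0.0583), with the deposited values (adjusted p = 0.0633) and with median centring in place of loess (adjusted p = 0.197), and over 13 settings the adjusted p ran from 0.0221 to 0.197.

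Sp8 encodes a related zinc finger factor with roles in limb and brain development. Its signals were low, 7.15 and 7.35 in the NOGGIN-labelled channel and 6.93 and 7.57 in the control-labelled channel. In the control-labelled channel of replicate 1, 50% of its spots were well above background, so Sp8 was kept on its NOGGIN-labelled signal and only 1 of the 2 control-labelled channels measured it. The ratio was 0.22 on replicate 1 and -0.22 on replicate 2, which gave a mean of -0.0020 ± 0.31 (SD, n = 2; 95% interval -0.31 to 0.31; adjusted p = 0.997). The second Sp8 probe gave 0.094, with 25% of its spots above background in that same channel. Among the other SP factors 6 of 7 were measured, with a median of 0.20. Of these 1 was higher, against 3.95% of all genes, and 0 lower. The gene that passed was Sp7, known from bone formation, at 0.49 ± 0.18 (adjusted p = 0.0412).

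Promoter sequence is shown for the 2 genes past the threshold and for the 2 others in which a TCF/LEF core motif was found. The core was searched as CTTTG followed by any of AA, AT, TA and TT, on both strands, in RefSeq windows of 300 bases, 250 before and 50 after an annotated start, on GRCm38.p6. Of 32851 windows, 5544 or 16.9% held a match, and 1.94% held 2 or more. There were 13 windows for 7 of the readout genes, and 3 of the 13 held a match. The Sp5 window was the only one of the 13 with 2 matches, at 222 and 104 bases before the start. The 250 bases upstream of Sp5 lie at chr2:70474673-70474922 on the plus strand, those of Nkd2 at chr13:73847632-73847881 on the minus strand. Shorter stretches come from 1 of 4 Lef1 windows (chr3:131156117-131156183, plus strand, match 147 bases before that start) and from 1 of 3 Sp8 windows (chr12:118847152-118847218, plus strand, match 51 bases before that start). Each is written 5′ to 3′ with the matches in capitals.
Sp5: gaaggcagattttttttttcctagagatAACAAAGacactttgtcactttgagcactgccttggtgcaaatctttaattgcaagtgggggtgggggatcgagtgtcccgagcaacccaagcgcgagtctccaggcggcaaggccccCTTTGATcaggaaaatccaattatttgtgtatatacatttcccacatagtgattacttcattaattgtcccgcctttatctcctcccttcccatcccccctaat
Nkd2: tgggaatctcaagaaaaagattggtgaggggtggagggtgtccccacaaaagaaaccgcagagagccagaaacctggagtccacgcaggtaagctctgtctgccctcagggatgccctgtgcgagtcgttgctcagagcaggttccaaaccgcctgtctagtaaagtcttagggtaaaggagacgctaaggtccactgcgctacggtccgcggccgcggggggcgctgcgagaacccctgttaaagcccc
Lef1: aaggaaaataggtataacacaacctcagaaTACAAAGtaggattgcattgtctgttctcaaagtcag
Sp8: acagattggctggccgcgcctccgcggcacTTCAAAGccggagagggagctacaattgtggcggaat
The Nkd2 stretch has no capitals because its window held 0 matches, and the windows of Axin2, Nkd1 and Tcf7 held 0 as well. Sp5, with 2 matches, and Nkd2, with 0, are the genes past the threshold, whereas Lef1 and Sp8, each with a matching window, had mean ratios near 0. A match is a run of letters and not a site known to be bound, and the absence of one covers only the window searched.

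The members that act in the cytoplasm are negative feedback factors. Nkd1 and Nkd2 encode the mammalian forms of Naked cuticle, which bind Dishevelled and dampen WNT signalling. Nkd2 had signals of 12.08 and 12.07 in the NOGGIN-labelled channel, against 12.65 and 12.72 in the control-labelled channel. The channels did not overlap, and the arrays gave nearly the same ratio. The mean log2 ratio was -0.61 ± 0.056 (SD, n = 2), a 1.52-fold difference, with a 95% interval of -0.80 to -0.42 and an adjusted p of 0.0146. On replicate 1 the difference was 1.48-fold, just short of 1.5, and on replicate 2 it was 1.57-fold.

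The second Nkd2 probe showed a larger difference in the same direction. Its signals were 8.986 and 8.998 in the NOGGIN-labelled channel and 10.85 and 11.06 in the control-labelled channel. The mean log2 ratio was -1.96 ± 0.14 (SD, n = 2), a 3.89-fold difference, with a 95% interval of -2.17 to -1.75 and an adjusted p of 0.00230 in the fit over all kept probes. Both probes had every spot well above background in every channel. They differed by 1.35 on the log2 scale, against a median of 0.065 over the 4457 genes with several kept probes, and only 4 of those genes, 0.0897%, had probes farther apart. Which part of the transcript each probe reads was not analysed here. The authors' deposited table lists the brighter probe at 1.49 and 1.58 and the dimmer one at 4.03 and 4.82. The direction was therefore shared by the probes and the size was not, and the mean of both probes gave -1.28.

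**Figure D2:**
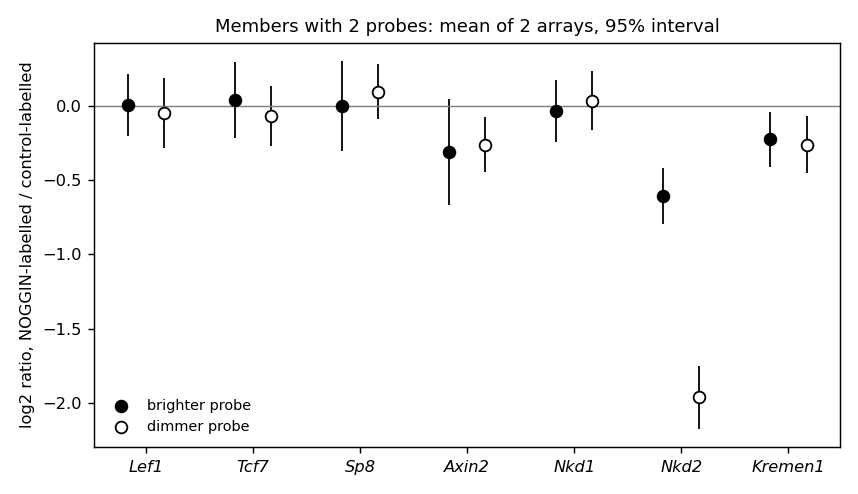
Mean log2 ratio over the 2 arrays (vertical axis, NOGGIN-labelled over control-labelled) of the brighter (filled) and the dimmer (open) probe of the 7 readout genes with 2 probes; lines are 95% intervals of the moderated fit over all kept probes. The Nkd2 probes, at -0.61 and -1.96, lie apart with intervals that do not overlap, while the intervals of the 2 probes overlap for the other 6 genes.

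Nkd1, the paralogue, had signals of 14.39 and 14.42 in the NOGGIN-labelled channel, against 14.34 and 14.55 in the control-labelled channel. The channels overlapped and the sign differed between the arrays. The mean log2 ratio was -0.037 ± 0.13 (SD, n = 2; 95% interval -0.25 to 0.17; adjusted p = 0.846), and the second probe gave 0.033. The 95% intervals of Nkd1 and Nkd2 do not overlap, but the difference between the paralogues was not tested itself.

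Axin2 encodes a scaffold of the complex that destroys β-catenin and is a widely used WNT readout. Its signals were 8.82 and 8.52 in the NOGGIN-labelled channel, against 8.85 and 9.12 in the control-labelled channel. The channels did not overlap, but nearly all of the difference came from replicate 2, with a log2 ratio of -0.60, against -0.028 on replicate 1. The mean of -0.31 ± 0.40 (SD, n = 2; 95% interval -0.68 to 0.057) did not pass the threshold (adjusted p = 0.280). The second Axin2 probe was dimmer but steadier, with -0.29 and -0.24 on the arrays, a mean of -0.26 ± 0.033 and an adjusted p of 0.103. The authors' deposited table lists the brighter Axin2 probe at 1.04 and 1.68 and the dimmer one at 1.66 and 1.49, so there too the brighter probe varied more. Axin1, the paralogue that is made regardless of WNT activity, averaged -0.056 ± 0.12 (adjusted p = 0.752).

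The membrane members act at the cell surface. Apcdd1 encodes a membrane glycoprotein that binds WNT and LRP proteins and inhibits the pathway. Its signals were 12.78 and 12.67 in the NOGGIN-labelled channel, against 13.01 and 13.15 in the control-labelled channel. The channels did not overlap, and both ratios were negative, -0.22 on replicate 1 and -0.48 on replicate 2. The mean was -0.35 ± 0.18 (SD, n = 2; 95% interval -0.58 to -0.12), with an adjusted p of 0.0943, so it missed the threshold although its interval lies below 0. A single probe measured Apcdd1.

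Kremen1 encodes a transmembrane receptor for Dickkopf proteins, with which it removes LRP6 from the cell surface. It had signals of 12.77 and 12.85 in the NOGGIN-labelled channel, against 12.98 and 13.09 in the control-labelled channel. The channels did not overlap, and the ratios of -0.21 and -0.24 lay close together. The mean was -0.23 ± 0.023 (SD, n = 2; 95% interval -0.41 to -0.044; adjusted p = 0.143), and the dimmer second probe gave -0.26 (adjusted p = 0.113). Kremen2, its paralogue, had a larger difference in the same direction, with log2 ratios of -1.17 and -1.18 and an adjusted p of 0.00401. The authors' deposited table lists Apcdd1 at 1.17 and 1.36 and Kremen1 at 1.16 and 1.20, again with the opposite sign.

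The SD between single spots of a probe was smaller than the SD between arrays for Sp5 and Axin2 and larger for Kremen1. These are unlike measures, because each array value is already a mean of up to 4 spots. The SD between arrays also rests on only 2 values. The log2 ratios of the Sp5 spots had an SD of 0.11 on replicate 1 and 0.058 on replicate 2, against 0.34 between the arrays. For Axin2 the SD was 0.12 and 0.088 between spots and 0.40 between arrays. For the brighter Nkd2 probe it was 0.017 and 0.040 between spots and 0.056 between arrays. Kremen1 had 0.064 and 0.059 between spots and 0.023 between arrays. Ranked by p over the 21337 genes, Nkd2 stood at place 561, Sp5 at 1593, Apcdd1 at 2573 and Kremen1 at 3593. Axin2 followed at 6227, and Nkd1, Tcf7, Lef1 and Sp8 lay between 17018 and 21138.

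**Figure D3:**
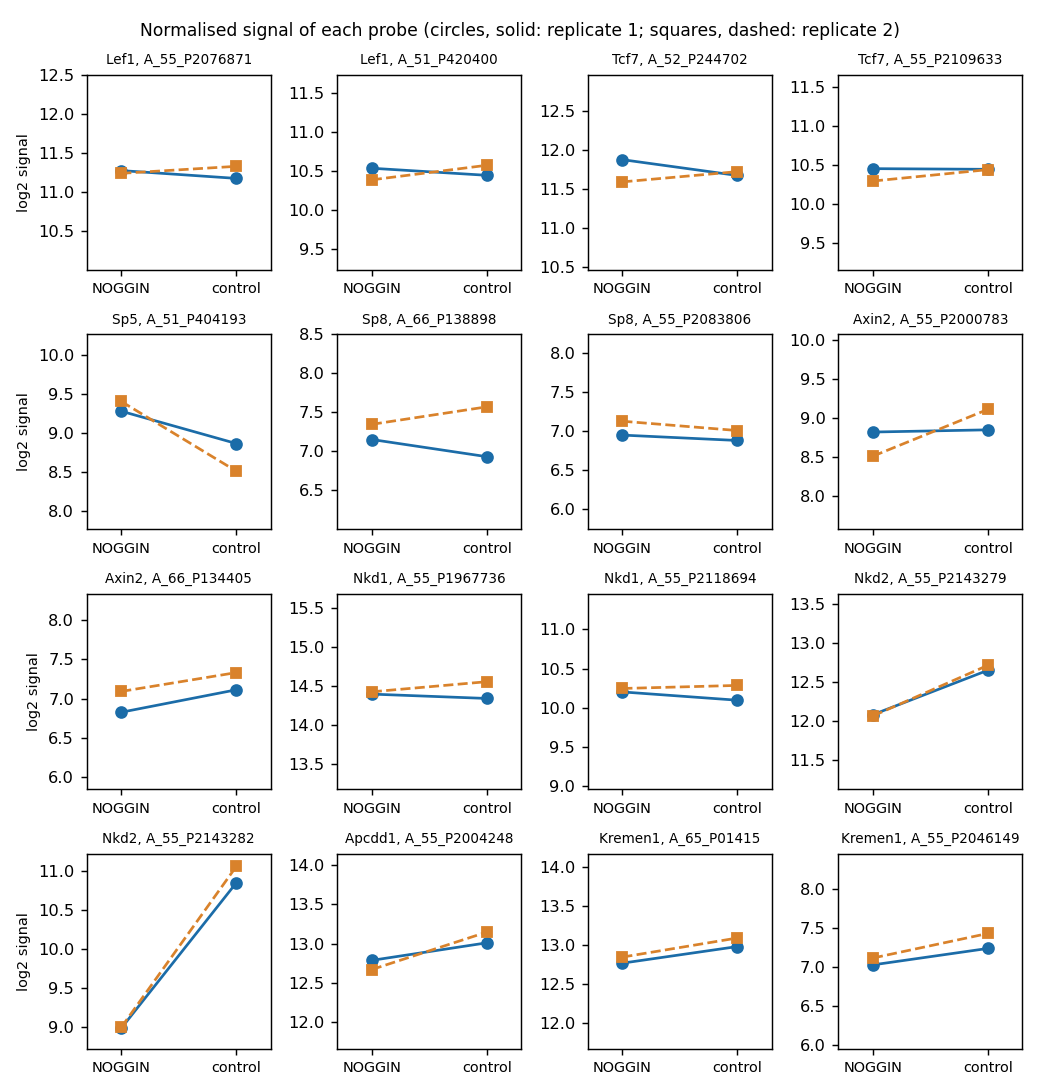
Normalised log2 signal (vertical axis, each panel spanning the same number of log2 units) of each of the 16 probes in the NOGGIN-labelled and the control-labelled channel; lines join the channels of an array. Levels are not comparable between probes. The lines of both Nkd2 probes climb steeply towards the control-labelled channel, those of Sp5 descend, and those of Lef1, Tcf7 and Nkd1 are nearly flat or cross.

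The rest of the pathway was described from lists of other WNT genes grouped by role, chosen with earlier results of these data known. Of 105 such genes, 95 were measured and the other 10 were too dim. In the NOGGIN-labelled channel 7 were higher and 17 lower, and 71 did not pass, so that 25.3% passed, against 7.97% of all genes. The median log2 ratio of the 95 was -0.056. Over all genes, 3.95% were higher and 4.03% lower, and 23.2% had an unadjusted p under 0.05 in limma's test. Counts in the lists below stand beside these shares.

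Among WNT ligands 14 of 19 were measured, with a median of -0.38. Of these 7 were lower, against 4.03% of all genes, 0 higher and 7 not past the threshold. At an unadjusted p under 0.05, 8 were lower and 2 higher, against 23.2% of all genes in either direction. Wnt6, an epithelial ligand, had log2 ratios of -1.38 and -1.41 (adjusted p = 0.00341). Wnt10a averaged -1.15 ± 0.21 (adjusted p = 0.00645) and Wnt9a -0.92 ± 0.24 (adjusted p = 0.0119). Wnt3 was not well above background in the NOGGIN-labelled channel of either array, with mean log2 signals of 6.39 there and 7.17 in the control-labelled channel, and was at least 1.36-fold lower (adjusted p = 0.0135). Wnt7b and Wnt9b, the ligands known from the ureteric epithelium, were picked out after their values were seen. Wnt7b averaged 0.21 ± 0.11 (adjusted p = 0.207), and Wnt9b averaged -0.69 ± 0.27 and passed the threshold (adjusted p = 0.0293).

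The R-spondins strengthen WNT signalling by keeping Frizzled receptors at the cell surface. In the list of R-spondins, their LGR receptors and the ligases RNF43 and ZNRF3, 7 of 9 genes were measured, 2 were lower, 0 higher and 5 not past. Rspo1 averaged -1.77 ± 0.15 (adjusted p = 0.00338) and Rspo2 -0.89 ± 0.093 (adjusted p = 0.00676). Of 16 WNT receptors and co-receptors, 1 was higher, 2 were lower and 13 did not pass. The higher one was Fzd9 at 1.13 ± 0.15 (adjusted p = 0.00544), and the lower ones were Ror2, which binds WNT5A, at -0.80 ± 0.12 (adjusted p = 0.00933) and Fzd2 at -0.43 ± 0.14 (adjusted p = 0.0455). A second Fzd2 probe gave -0.27 (adjusted p = 0.262), and the Fzd2 call was lost under 6 of 14 alternatives. The co-receptors Lrp5 and Lrp6 averaged -0.13 ± 0.012 (adjusted p = 0.354) and -0.072 ± 0.079 (adjusted p = 0.646).

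Of 14 extracellular antagonists and their receptors 13 were measured, 4 of them higher, 4 lower and 5 not past, with a median of 0.059. Dkk2, which encodes an LRP-binding antagonist, was higher with log2 ratios of 1.11 and 1.38 (adjusted p = 0.00544). Kremen2, as above, Sfrp5, a secreted WNT-binding protein, and Sostdc1, an antagonist of WNT and BMP ligands, were lower. Sfrp5 averaged -1.06 ± 0.058 (adjusted p = 0.00465) and Sostdc1 -1.03 ± 0.053 (adjusted p = 0.00474). The list of other WNT target genes had 14 measured of 16, with 2 higher, 1 lower and 11 not past. It shares 7 genes with the other lists, among them both higher ones, Wif1 and Dkk1, which are counted among the antagonists too. Wif1, a secreted WNT inhibitor, averaged 0.93 ± 0.071 (adjusted p = 0.00596) and Dkk1, the founding Dickkopf antagonist, 0.60 ± 0.11 (adjusted p = 0.0181). Tnfrsf19, a receptor of the tumour necrosis factor receptor family, averaged -1.27 ± 0.33 (adjusted p = 0.00884), and its dimmer second probe -0.33 (adjusted p = 0.0798).

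Of the 15 genes for the destruction complex and Dishevelled, 0 passed limma's adjusted threshold and 1 had an unadjusted p under 0.05, with ratios from -0.19 to 0.34. Dvl1, Dvl2 and Dvl3, the Dishevelled genes whose products Naked cuticle proteins bind, averaged -0.19 ± 0.18, -0.063 ± 0.0050 and -0.16 ± 0.12, with adjusted p of 0.290, 0.676 and 0.311. Of the 3 genes for ligand export and modification 0 passed, also at an unadjusted p. Of 13 nuclear partners 1 was higher, 1 lower and 11 not past. Tle1, a corepressor of TCF/LEF factors, averaged -0.66 ± 0.18 (adjusted p = 0.0199), and its other 3 probes gave values between -0.57 and -0.51. Tle2, a second corepressor of the family, averaged 0.39 ± 0.045 (adjusted p = 0.0430), with 0.18 for its other probe (adjusted p = 0.230), and its call was lost under 7 of 14 alternatives. Ctnnb1, which encodes β-catenin, averaged 0.23 ± 0.27 (adjusted p = 0.304).

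**Figure D4:**
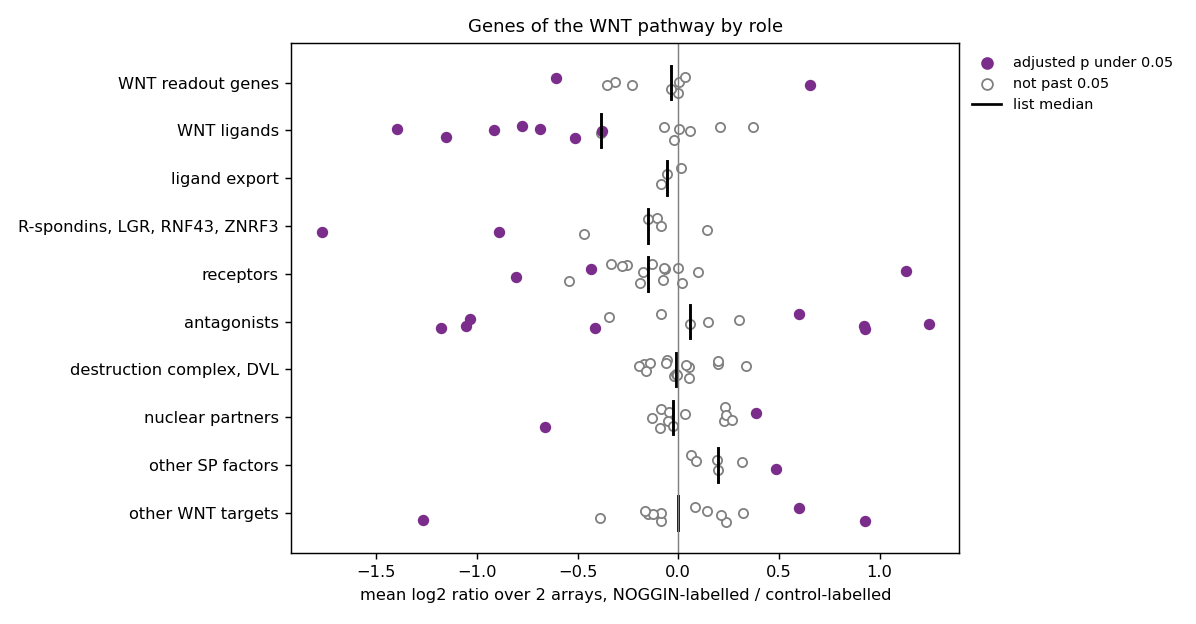
Mean log2 ratio over the 2 arrays (horizontal axis, NOGGIN-labelled over control-labelled) of each measured gene of the WNT pathway, by role (rows). Filled circles passed an adjusted p of 0.05, open circles did not, and black bars are list medians; Wnt3 is drawn at its measured value, which is a bound. The ligands lie mostly left of 0 with a median of -0.38, whereas the readout genes have a median of -0.037 with 1 filled circle on each side.

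Markers of some cell types also differed between the channels. The marker lists were chosen with earlier results of these data known, so their counts are not independent support. Over all genes tested, 7.97% passed limma's adjusted threshold and 23.2% had an unadjusted p under 0.05. Smooth muscle markers were lower for 5 of 6 genes, with a summed normalised signal of 203868 and 231273 in the NOGGIN-labelled channel of replicates 1 and 2, against 451993 and 479412 in the control-labelled channel. Markers of renal stroma were lower for 4 of 4 genes, with sums of 50847 and 49605 in the NOGGIN-labelled channel and 95052 and 117829 in the control-labelled channel. Ureteric mesenchyme markers were mixed, with 4 higher and 2 lower of 8, and sums of 309351 and 340958 in the NOGGIN-labelled channel against 425432 and 493080 in the control-labelled channel. Such sums are led by the brightest probes. In ureteric epithelium 0 of 9 markers passed limma's adjusted threshold, 3 had an unadjusted p under 0.05, and the sums were 209497 and 222621 in the NOGGIN-labelled channel against 188050 and 215168 in the control-labelled channel. Nephron progenitor and ureteric bud tip lists had 1 lower marker each, of 5 and 4. Lists for endothelium, macrophages, neurons and neural crest, and erythroid cells had 0 markers past the adjusted threshold, and 2 of 5, 1 of 4, 1 of 4 and 0 of 4 measured ones at an unadjusted p under 0.05. The part of these markers' differences in the values of Nkd2 or any other readout gene was not tested.

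Processing settings were compared for the 5 readout genes with the same sign on both arrays. Settings that changed only the dim-probe filter or the form of the test left their mean log2 ratios unchanged. For Sp5 and Apcdd1, with a single probe each, so did averaging a gene's probes. The settings counted below are therefore not independent of the main fit. Nkd2 stayed past the threshold under 12 of 13 other settings, with mean log2 ratios between -1.28 and -0.61. The exception was median centring in place of loess (adjusted p = 0.102, against 0.00389 at the lowest), under which 0 of all genes passed in limma's test and 3572 had an unadjusted p under 0.05. Sp5 stayed past it under 10 of the 13, with ratios between 0.64 and 0.79. Apcdd1, Axin2 and Kremen1 passed under 0 of the 13, with the lowest adjusted p at 0.0554 for Apcdd1, 0.134 for Axin2 and 0.0865 for Kremen1. Their ratios stayed negative in each, from -0.41 to -0.34 for Apcdd1, -0.40 to -0.29 for Axin2 and -0.29 to -0.23 for Kremen1.

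**Figure D5:**
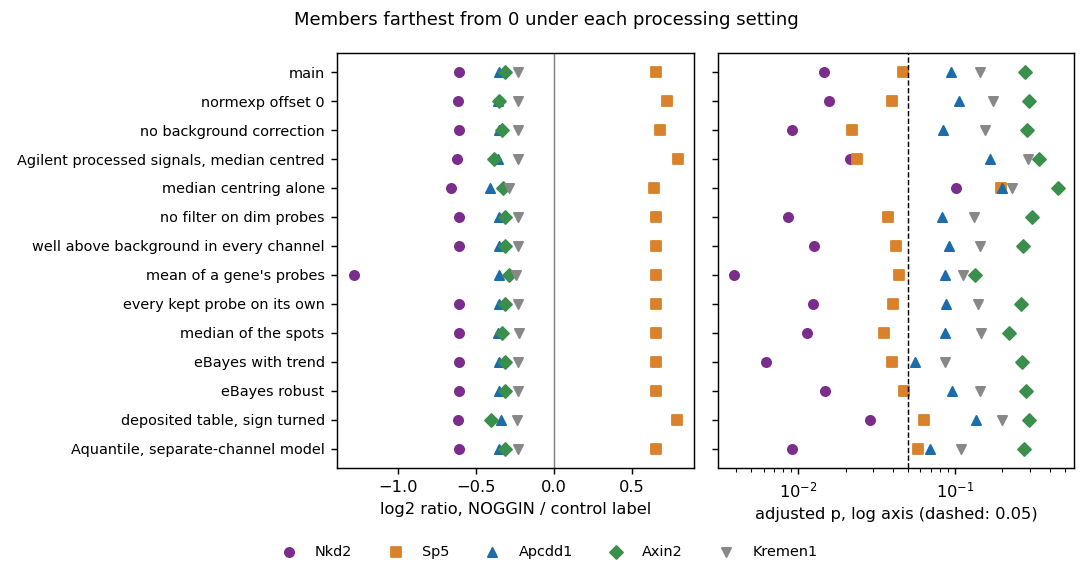
Mean log2 ratio (left panel, NOGGIN-labelled over control-labelled) and adjusted p (right panel, log axis, dashed line at 0.05) of the 5 readout genes farthest from 0 under each processing setting (rows). Nkd2 lies left of the dashed line in all rows but median centring, Sp5 lies right of it in 3 rows, and Apcdd1, Axin2 and Kremen1 lie right of it in every row.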

How the data were processed

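The measurements are 2 Agilent 2-colour arrays, each with a NOGGIN and a control sample of mouse ureter cultures and with the dyes exchanged. RNA input was 200 ng per sample, per the labels' protocols. Linear spot intensities come from the deposited scanner output of Agilent Feature Extraction, version 10.7.3.1 in the submitters' processing notes. A log10 ratio of red over green, computed by that software per the file headers, served only as a check. The authors' deposited table holds signed fold changes, with ratios below 1 as negative reciprocals, treated as a score. Its normalisation and direction are not given in the sources used here.

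Intensities were corrected with normexp (offset 50) and normalised by loess (span 0.3) in limma 3.58.1 (R 4.3.3), leaving out 3.69% of spots as outliers. Each array had 39429 probes in 4 spots each, which were averaged. Probes had to be well above background in a share over 0.5 of their spots, on each array, in 1 condition or both; 26712 probes did so, and the brightest kept probe stood for a gene. Log2 ratios were tested against 0 over 21337 genes (lmFit and eBayes, two-sided, Benjamini-Hochberg), with 1 residual and 4.12 prior degrees of freedom. Both arrays were on 1 slide per the file headers. The limma fit alone was run on simulated log2 ratios, without dye effects. The simulated shifts were larger than the mean ratio of the brightest probe of any readout gene. That run therefore does not cover differences of their size.

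Readout genes and lists were chosen with earlier results of these data known. Besides the 9 readout genes, the text names up to 4 genes per list with the largest mean among those past the threshold, 10 partners or paralogues whatever their values, and Id1, Id2 and Smad6. Alternatives covered background correction, normalisation, dim-probe filter, probe and spot summaries, the form of the test, the deposited table and each array alone.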

Additional observations from a re-analysis of the deposited data

How the results depend on the processing

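With 2 arrays and 1 residual degree of freedom, small differences could miss the threshold even when steady. Kremen1 did so at -0.23 ± 0.023 (SD, n = 2; adjusted p = 0.143 in limma's test). The direction is not settled, and Sp8 is limited by its dim signal. The test of ratios within an array already compares the conditions as pairs, so no further replicate block was added. Median centring in place of loess left 0 of the readout genes, 0 of the other WNT pathway genes and 0 of all genes past the threshold (3572 genes at an unadjusted p under 0.05), and the cause was not tested. Past the threshold was 1 readout gene with the separate-channel model and 1 with the deposited table in either sign. Leaving out an array gives no test, and the number of readout genes at 1.5-fold or more then lay between 0 and 3. Turning the sign gave -0.0051 for Lef1, -0.036 for Tcf7, -0.65 for Sp5, 0.0020 for Sp8, 0.31 for Axin2, 0.037 for Nkd1, 0.61 for Nkd2, 0.35 for Apcdd1 and 0.23 for Kremen1. The authors' deposited table in its own sign gave -0.034 for Tcf7, -0.79 for Sp5, 0.40 for Axin2, 0.029 for Nkd1, 0.62 for Nkd2, 0.34 for Apcdd1 and 0.24 for Kremen1. With its sign turned, an alternative chosen after seeing the data like the 1.5-fold count of each array alone, it gave -0.0068 for Lef1 and 0.060 for Sp8. Median centring gave -0.031 for Lef1, -0.0068 for Tcf7 and 0.015 for Sp8, and the mean of a gene's probes gave -0.021, -0.017 and 0.046. The second probe gave -0.048 for Lef1, -0.069 for Tcf7, 0.094 for Sp8 and 0.033 for Nkd1, and 2 further probes of Tcf7l2 gave -0.19 and -0.028. For Sp8, normexp without an offset gave 0.023 and Agilent's processed signals 0.026. Of the tested alternatives to readout gene ratios, 4 lost the call, 30 changed sign and the rest kept direction and side of the threshold. For the other named genes, leaving out alternatives that turn the sign, 401 kept both, 35 lost the call and 2 changed sign. The tallies cannot be compared, because the 30 include every readout gene with its sign turned, a change fixed in advance. They also include the deposited table in its own, mostly opposite sign. A single array gave the other sign in 4 of its values for readout genes, against 14 with the same sign, and in 1 against 65 for the other named genes. These tallies are partly fixed in advance, because at most 1 of 2 arrays can oppose the sign of their mean. Many of the other named genes were also picked for passing the threshold, so the tallies cannot be compared either.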
